A study of Mus musculus with 16 samples.

Results

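The guanylate-binding proteins Gbp2, Gbp3, Gbp4, Gbp5, Gbp6, Gbp7, Gbp8 and Gbp9 were followed in B1b cells and aortas of mice of the ApoE-/- strain. The members were the rows of the count table that map to these 8 symbols, out of 24562 entries left after 1 row was kept per gene, and the row with the highest total count over the 16 libraries stood for each gene. The rows were thus chosen by their total count, with no use of the genotype. The family itself was taken up with earlier genotype results of these data known, so its genotype differences are descriptions of these libraries and support nothing beyond them, and each adjusted p is the record of a fit over all genes tested.

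The libraries came from 4 groups, all on the ApoE-/- background, which lacks apolipoprotein E and is prone to atherosclerosis. B1b cells, innate-like B cells that live in body cavities, were sorted from peritoneal lavage, with 3 libraries of the wt genotype and 3 of the cre genotype. Whole aortas gave 5 wt and 5 cre libraries. The series describes the cre mice as lacking, in B cells only, the costimulatory receptor CD40, through which T cell help reaches B cells. The sources used here do not give the promoter that drives the Cre, the part of Cd40 it removes, or the age, sex, diet and pooling of the mice. The labels do not tie each library to its own animal, and p-values therefore measure only the spread between libraries, which may be technical.

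Guanylate-binding proteins are large GTPases of the dynamin superfamily that interferon gamma strongly induces. They assemble on the vacuoles of intracellular parasites and on bacterial surfaces, where they help to break the membrane and to switch on the caspase-11 and other inflammasome pathways. Several members, Gbp2 and Gbp5 among them, carry a prenylation motif that anchors them to membranes. Their transcripts are commonly read as a sign of interferon signalling in immune cells and in the artery wall.

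In mouse the family lies in 2 clusters. On chromosome 3, Gbp5, Gbp7, Gbp3, Gbp2b and Gbp2 occupy 141.1 kb from 142496934 to 142638008, and on chromosome 5, Gbp8, Gbp9, Gbp4, Gbp10, Gbp6 and Gbp11 occupy 334.0 kb from 105012513 to 105346476 (GRCm38). Each cluster holds 4 of the 8 members. Gbp2b, Gbp10 and Gbp11 are not members and are described only beside them.

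RefSeq start regions were at hand for 4 members, Gbp2, Gbp3, Gbp5 and Gbp7, all on chromosome 3. They are shown because the 3 members that passed the genotype test in B1b cells are among them. Each runs from 250 bases before to 50 bases after the start on the plus strand of GRCm38.p6. Capitals mark the interferon-stimulated response element, read as 2 copies of GAAA with any 2 bases between them, and the gamma-activated site, TTCNNNGAA, each searched on both strands.
Gbp2 (chr3:142620413-142620712): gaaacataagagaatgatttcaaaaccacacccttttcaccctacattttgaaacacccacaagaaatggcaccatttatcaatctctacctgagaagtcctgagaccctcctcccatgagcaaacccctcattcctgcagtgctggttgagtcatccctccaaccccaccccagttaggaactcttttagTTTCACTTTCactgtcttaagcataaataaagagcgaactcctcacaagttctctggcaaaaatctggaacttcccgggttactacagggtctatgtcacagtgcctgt
Gbp3 (chr3:142559794-142560093): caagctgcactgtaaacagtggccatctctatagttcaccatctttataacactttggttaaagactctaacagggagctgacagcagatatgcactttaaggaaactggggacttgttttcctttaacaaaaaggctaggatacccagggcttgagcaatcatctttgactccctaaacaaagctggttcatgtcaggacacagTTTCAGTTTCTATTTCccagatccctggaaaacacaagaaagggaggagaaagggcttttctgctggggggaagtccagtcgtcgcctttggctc
Gbp5 (chr3:142496684-142496983): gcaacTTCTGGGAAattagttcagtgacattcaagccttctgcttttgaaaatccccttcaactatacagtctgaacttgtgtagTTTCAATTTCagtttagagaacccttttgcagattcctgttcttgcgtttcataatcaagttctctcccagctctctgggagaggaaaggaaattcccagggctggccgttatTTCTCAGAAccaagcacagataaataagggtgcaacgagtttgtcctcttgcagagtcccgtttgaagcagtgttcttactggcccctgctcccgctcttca
Gbp7 (chr3:142530086-142530385): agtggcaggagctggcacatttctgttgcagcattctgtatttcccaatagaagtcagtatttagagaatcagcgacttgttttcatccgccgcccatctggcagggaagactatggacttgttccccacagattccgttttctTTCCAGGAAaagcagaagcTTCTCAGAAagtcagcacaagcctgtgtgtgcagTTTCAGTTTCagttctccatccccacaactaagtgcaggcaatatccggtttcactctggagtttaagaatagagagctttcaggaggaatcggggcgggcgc
Each of these 4 regions held the response element, against 1131 of 32851 start regions (3.44%) in the whole table. In Gbp2, Gbp7 and Gbp3 it lay close to the start, at 59 to 50 bases before it in Gbp2, at 53 to 44 in Gbp7, and in Gbp3 as a pair of overlapping matches at 45 to 36 and at 39 to 30. In Gbp5 it lay farther out, at 165 to 156 bases before the start. The gamma-activated site was matched in Gbp5 and Gbp7, at 2 places in each, and in 2726 of all start regions (8.30%). Gbp3 has a second RefSeq start, whose region held neither motif. That start lies 55 bases from the start of the counted Gbp3 transcript, nearer than the 367 bases of the region shown. The starts used for Gbp2, Gbp5 and Gbp7 lie 61, 34 and 6 bases from those of their counted transcripts. The distances above are from the RefSeq starts. Gbp5 and Gbp2b, which did not pass the genotype test, held the response element too. The regions were shown with the calls known, so no link between motif and call is read. The matches are letters in a window and say nothing of binding.

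In wild-type B1b cells the members covered a wide range of levels. Per kb of transcript, Gbp3 stood at 82.4 ± 12.9 CPM and Gbp2 at 78.2 ± 2.12 (SD, n = 3; CPM, the read count scaled to library size), and their libraries overlapped. Gbp7, which in mouse macrophages helps to assemble the phagocyte oxidase, followed at 42.7 ± 4.12 CPM per kb. Gbp5, a promoter of inflammasome assembly, stood at 24.9 ± 4.56 CPM per kb. Each step from Gbp2 to Gbp7 to Gbp5 to Gbp9 separated without overlap of the 3 libraries. Gbp9 at 13.9 ± 0.763 and Gbp4 at 10.7 ± 2.02 CPM per kb also did not overlap, with lowest and highest values of 13.1 and 12.6. Gbp6 at 2.69 ± 1.37 and Gbp8 at 1.75 ± 0.720 CPM per kb came last and overlapped with each other.

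Reads of near-identical genes could have been shared in the authors' counting. Of the 50-base words in the Gbp6 transcript, 70.3% also occur elsewhere in the family, mostly in Gbp10, so Gbp6 and Gbp10 are uncertain. The share was 21.2% for Gbp8, 12.8% for Gbp4 and 9.56% for Gbp9. It was at most 4.79% for the chromosome 3 members, with Gbp3 at 4.79%, Gbp7 at 2.28%, Gbp2 at 2.07% and Gbp5 at 0%.

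**Figure D1:**
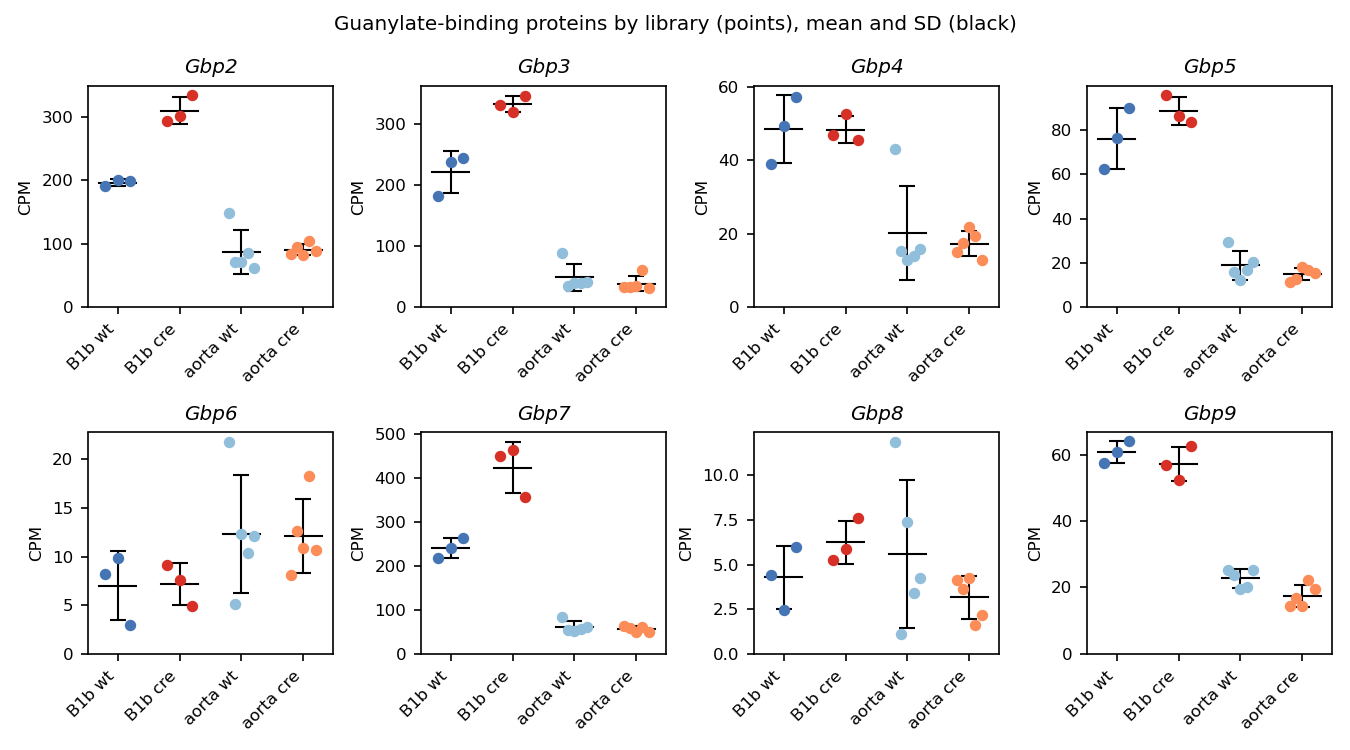
Level of each member in CPM (y axis, from 0) in every library of the 4 groups (x axis). Points are libraries in replicate order, black lines are the mean and 1 SD. In B1b cells the cre libraries of Gbp2, Gbp3 and Gbp7 all lie above the wild-type ones, and among the aortas wild-type replicate 1 is the highest for 7 of the 8 members.

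The first genotype comparison asked how B1b cells differed between cre and wild type. Gbp2, Gbp3 and Gbp7 were higher in cre B1b cells, by 1.51- to 1.77-fold, and the other 5 members did not pass the test. Gbp2, which gathers on the vacuole of Toxoplasma in mouse cells, stood at 191, 200.4 and 199 CPM in wild type and at 294, 302 and 335 CPM in cre. The cre libraries all lay above the wild-type ones, with a log2 fold change of 0.67 (SE 0.08, 95% interval 0.50 to 0.83; adjusted p = 0.000262 by edgeR's quasi-likelihood test with Benjamini-Hochberg adjustment). By p it ranked 2 among the 11732 genes tested.

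Gbp7 stood at 217, 239 and 263 CPM in wild-type B1b cells and at 450.1, 462 and 356 CPM in cre. The groups did not overlap, although cre replicate 3 lay closer to the wild type than the other two. The log2 fold change was 0.83 (SE 0.10, 95% interval 0.62 to 1.03; edgeR adjusted p = 0.000327). Gbp3, another interferon-induced GTPase of the cluster, stood at 181, 237 and 245 CPM in wild type and at 331, 320.2 and 346 CPM in cre. Its groups did not overlap either, and its log2 fold change was 0.60 (SE 0.09, 95% interval 0.40 to 0.79; edgeR adjusted p = 0.00367). Thus 3 of 8 members passed, all upward, beside 0.486% of all genes tested that were called higher and 0.707% called in either direction. The same 3 members had cre libraries all above the wild-type ones, beside 8.92% of all genes tested. The family was chosen with these results known, so nothing is read from that count. The 3 calls held in each of the 6 fits that left out 1 library. They ended when the spread was estimated over all 16 libraries together, aortas included (edgeR adjusted p = 0.581 for Gbp2, 0.877 for Gbp3 and 0.154 for Gbp7), with fold changes of 0.66, 0.59 and 0.82, and the call of Gbp3 ended when counts were summed over transcripts (log2 fold change 0.60, edgeR adjusted p = 0.0540).

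The other tested genes of the chromosome 3 cluster did not pass. Gbp5 stood at 62.1, 76.2 and 90.0 CPM in wild-type B1b cells and at 95.6, 86.5 and 83.4 CPM in cre. The groups overlapped, and the log2 fold change of 0.22 had a 95% interval from -0.01 to 0.46 (edgeR adjusted p = 0.400). Gbp2b, the mouse gene long called Gbp1, stood at 22.6, 19.7 and 39.8 CPM in wild type and at 87.4, 107 and 41.1 CPM in cre. Its cre libraries lay above the wild-type ones but replicate 3 of each genotype nearly met, and the log2 fold change of 1.51 did not pass (95% interval 0.12 to 2.91; edgeR adjusted p = 0.347).

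None of the 4 members on chromosome 5 passed in B1b cells. Gbp4, which has been reported to restrain the interferon regulatory factor IRF7, stood at 39.0, 49.4 and 57.3 CPM in wild type and at 47.0, 52.5 and 45.5 CPM in cre, a log2 fold change of -0.00 with a 95% interval from -0.27 to 0.27. Gbp9 stood at 57.5, 60.8 and 64.1 CPM in wild type and at 56.7, 52.4 and 62.4 CPM in cre, a log2 fold change of -0.08 with a 95% interval from -0.29 to 0.13. For both genes a change as large as that fitted for Gbp2 lies outside the interval. Gbp6 and Gbp8, with at most 9.84 CPM in any B1b library, had intervals too wide to say as much, from -0.75 to 0.83 for Gbp6 and from -0.20 to 1.29 for Gbp8. Beside them, Gbp10 had a log2 difference of 0.53 (edgeR adjusted p = 0.717), and Gbp11, with at most 2 reads in any B1b library, was not tested. Over the 8 members the median log2 fold change was 0.38, beside -0.00 over all genes tested.

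**Figure D2:**
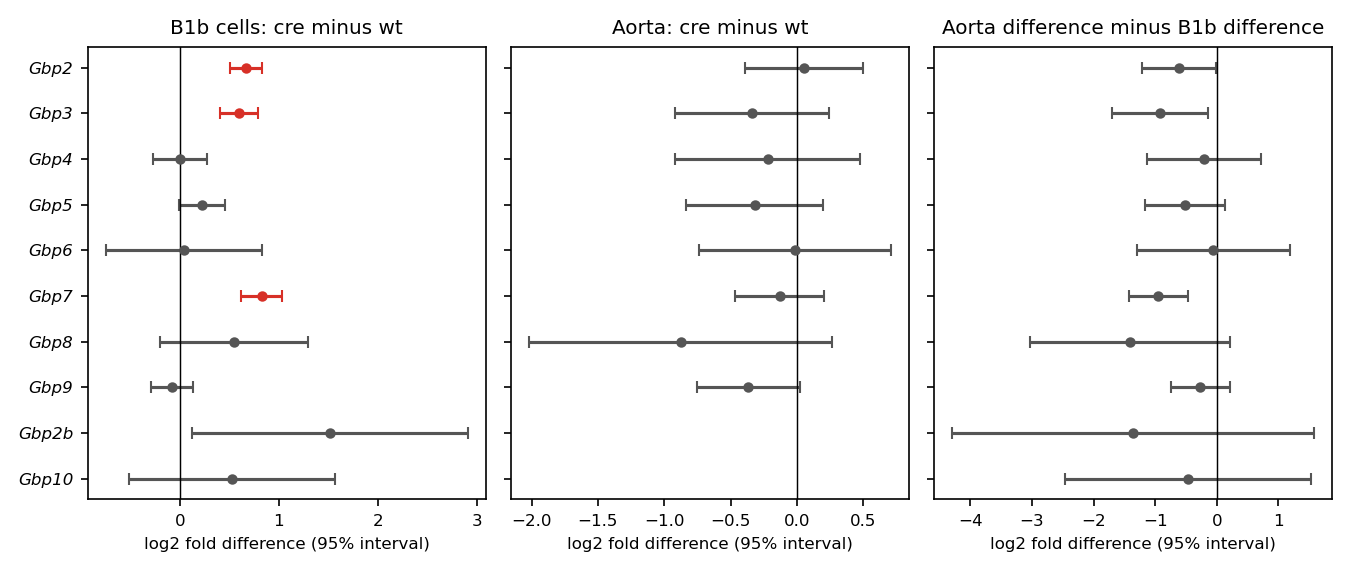
Log2 fold difference (x axis, 95% interval) of the 8 members and of Gbp2b and Gbp10 (y axis), for cre minus wt in B1b cells, for cre minus wt in aortas and for the aortic difference minus the B1b difference. Red points passed the edgeR threshold, which Gbp2, Gbp3 and Gbp7 did in B1b cells and no member did in the other panels. Gbp2b and Gbp10 have no point in the aorta panel because they were too low to test there.

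Summed over the 8 members, wild-type B1b libraries held 760, 875 and 927 CPM and cre libraries 1289, 1289 and 1241 CPM. The share of that sum from Gbp2, Gbp3 and Gbp7 was 76.2% to 77.5% in wild type and 83.4% to 84.1% in cre. The other 5 members together held 171 to 220.4 CPM in wild type and 204 to 214 CPM in cre, and the groups overlapped. Those 3 genes are the ones called higher in this same comparison. The split follows from that choice, so nothing is read from it.

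Position within the genome was set beside these differences. In the 1000 kb on either side of the chromosome 3 cluster, 4 of 25 genes were high enough to test in B1b cells. Of these 0 passed edgeR, where 0.707% of all genes tested did. Their log2 fold changes ran from -0.01 for Gtf2b to 0.38 for Kyat3, with a median of 0.18, and Pdlim5 and Pkn2 lay between them. Mir6381, which lies within Gbp2, was at 0.59 and did not pass (edgeR adjusted p = 0.652). Around the chromosome 5 cluster 11 of 56 genes were tested and 0 passed, with a range from -0.81 to 0.58 and a median of 0.08.

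**Figure D3:**
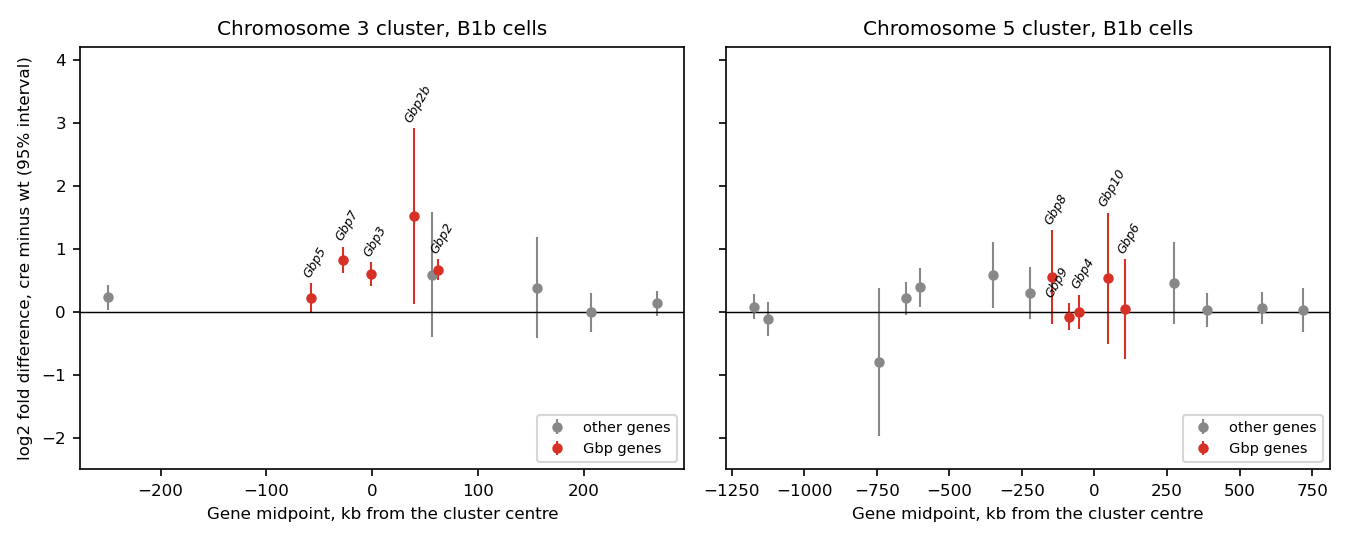
Log2 fold difference between cre and wt B1b cells (y axis, 95% interval) against the distance of each gene's midpoint from the centre of the chromosome 3 cluster (left) and the chromosome 5 cluster (right) in kb, with a different distance scale in each panel. Family genes are red and other tested genes inside the cluster or within 1000 kb of it are grey. On chromosome 3, Gbp7, Gbp3 and Gbp2 have intervals clear of 0 and passed the test. Gbp2b and the grey gene Pdlim5 have intervals clear of 0 without passing. On chromosome 5 every family gene's interval spans 0, and the grey genes Zfp33b and Zfp951 have intervals above 0 without passing.

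The rest of the interferon programme was read from lists of genes that act with the family. Over 7 lists with 84 genes tested in B1b cells, 0 passed edgeR, 0 passed DESeq2, 0 passed limma-voom, and 16 had an unadjusted edgeR p under 0.05, where 13.3% of all genes did. Of the immunity-related GTPases, several but not all of which share interferon gamma induction and vacuole targeting with the family, 0 of 6 passed. The median log2 fold change was -0.17. The 2 of smallest p were Irgm1 at a log2 difference of -0.21 (edgeR adjusted p = 0.340) and Irgc1 at -0.45 (edgeR adjusted p = 0.347).

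In the interferon gamma pathway 0 of 13 genes passed in B1b cells, with a median of -0.04. Irf1, a factor that binds the response element, ran from 146 to 162 CPM in wild type and from 135 to 155 CPM in cre, a log2 difference of -0.08. Transcripts of Ifng itself were at 0 reads in all 6 B1b libraries. Socs3, a feedback inhibitor of cytokine signalling, had the smallest p of the list at a log2 difference of 0.43 (edgeR adjusted p = 0.129), and the kinase gene Jak2 followed at 0.25 (edgeR adjusted p = 0.333).

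The interferon-induced genes of antigen presentation lay mostly below 0, without passing. Of 12 tested in B1b cells, 11 had a log2 difference below 0, with a median of -0.17, and 0 passed (edgeR). An unadjusted p under 0.05 was found for 6 of them, where 13.3% of all genes tested had one. Ciita, the master regulator of MHC class II genes, ran from 233 to 304 CPM in wild type and from 212 to 225 CPM in cre, a log2 difference of -0.33 (edgeR adjusted p = 0.117). Tap1, a subunit of the peptide transporter, was at -0.30 (edgeR adjusted p = 0.129). Type I interferon signalling genes, among them Oasl2 at 0.25 and Irf3 at -0.14, had a median of -0.03 over 24 genes tested.

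Among 29 tested genes of the pathways through which the GTPases act, 0 passed edgeR. An unadjusted p under 0.05 was found for 5, where 13.3% of all genes tested had one. Of 11 caspase-11 and inflammasome genes 0 passed, with a median of 0.01, and the pattern receptor Tlr4 and the cytokine Il18 had the smallest p at 0.33 and 0.35. Of 11 autophagy conjugation genes 0 passed, with a median of -0.09, led by the cargo receptor Sqstm1 at -0.24 and the conjugating enzyme Atg3 at 0.22. Of 7 prenylation genes 0 passed, with a median of 0.00. The 2 of smallest p were Pggt1b, a subunit of the geranylgeranyl transferase that lipidates such GTPases, at 0.42 (edgeR adjusted p = 0.148), and Icmt, which methylates the prenylated end, at -0.25 (edgeR adjusted p = 0.223).

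**Figure D4:**
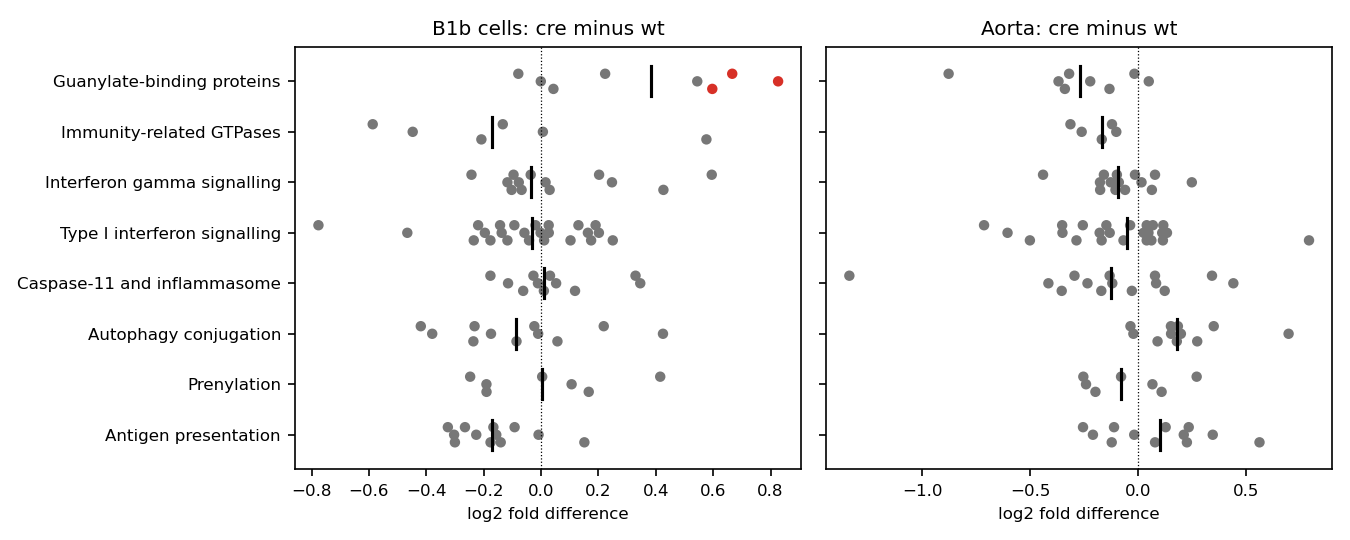
Log2 fold difference between cre and wt (x axis) of each tested gene of 8 lists (y axis), in B1b cells and in aortas, with a separate scale in each panel. Black bars are list medians and red points passed the edgeR threshold. In B1b cells the median of the guanylate-binding proteins is 0.38 and those of the other 7 lists lie from -0.17 to 0.01, and in aortas no listed gene passed. The family was taken up with its genotype results known, so the medians are descriptions and their contrast is no test.

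Checks of the libraries bear on these values. Counts ran from 6815829 to 9911226 per B1b library and from 1645926 to 7300894 per aorta. The B-cell genes Cd79a, Cd79b and Ms4a1 were at 1251 CPM or more in every B1b library, and the B-1 cell genes Zbtb32 and Bhlhe41 at 246 CPM or more, whereas Spn ran from 54.3 to 156 CPM and Cd5 from 1.72 to 7.64 CPM. Aortas held at least 1576 CPM of the smooth muscle gene Myh11. Cd40 did not differ beyond the spread, at 34.3 to 39.1 CPM in wild-type and 29.5 to 38.4 CPM in cre B1b cells (log2 fold change -0.16, 95% interval -0.45 to 0.13; edgeR adjusted p = 0.679). A count per whole transcript need not show the loss of part of a gene, so Cd40 does not check the labels.

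Some macrophage genes moved with the B1b result. Of 12 macrophage and monocyte markers tested, 9 lay above 0 and 3 below. In cre B1b cells 2 rose, Lyz1 (log2 fold change 1.32, edgeR adjusted p = 0.00637) and Csf1r (0.99, edgeR adjusted p = 0.0357), beside 0.486% of all genes tested that were called higher. The 14 listed markers summed to 294 to 462 CPM in wild type and 551 to 579 CPM in cre, without overlap, and to 2805 to 7010 CPM in aortas. Much of the sum in B1b libraries came from Itgam, which is also listed as a B-1 cell marker. Itgam ran from 155 to 193 CPM in wild type and from 186 to 206 CPM in cre, with overlap. Lyz2 ran from 56.9 to 145 CPM in wild type and from 192 to 237 CPM in cre, and Mrc1 from 16.1 to 32.7 and from 34.9 to 53.8 CPM, both without overlap, and DESeq2 but not edgeR called Mrc1. C1qa ran from 0.938 to 4.27 CPM in wild type and from 5.01 to 9.97 CPM in cre, and Gata6, of peritoneal macrophages, did not exceed 0.777 CPM. Adgre1, at 17.6 to 19.1 CPM in wild type and 11.6 to 19.8 CPM in cre, overlapped between the genotypes. So did Timd4, at 1.74 to 3.37 and 1.37 to 2.23 CPM, and C1qc, at 2.33 to 4.66 and 1.745 to 5.18 CPM. Markers of T and NK cells summed to 18.0 to 24.7 CPM over the B1b libraries of both genotypes. The part of macrophage RNA in the B1b result was not tested. In such bulk samples, more or fewer cells of a type and more or less RNA per cell cannot be told apart.

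The second comparison asked whether whole aortas, where B cells are a small part, differed between the genotypes. None of the 8 members passed the edgeR test, none had an unadjusted p under 0.05, and none passed DESeq2 or limma-voom, beside 0.015% of 13364 genes that passed edgeR. Gbp2 stood at 148, 71.8, 71.1, 85.0 and 62.3 CPM in wild-type aortas and at 83.8, 95.6, 82.2, 104 and 89.3 CPM in cre. The groups overlapped, with a log2 fold change of 0.05 and a 95% interval from -0.39 to 0.49 (edgeR adjusted p = 0.934).

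Gbp7 stood at 84.0, 53.3, 50.4, 55.8 and 60.7 CPM in wild-type aortas and at 62.1, 57.7, 49.0, 60.3 and 48.4 CPM in cre. The groups overlapped, and the interval of the log2 fold change of -0.13 ran from -0.47 to 0.21. Gbp3 stood at 88.3, 35.0, 40.2, 39.5 and 41.7 CPM in wild type and at 32.3, 33.7, 34.8, 60.2 and 31.3 CPM in cre. One library of each genotype was far above its group, and the log2 fold change of -0.34 had an interval from -0.92 to 0.24.

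Gbp9 came nearest to the threshold in aortas. It stood at 25.2, 23.6, 19.4, 20.1 and 25.3 CPM in wild type and at 14.4, 16.8, 14.2, 22.1 and 19.4 CPM in cre, a log2 fold change of -0.37 with a 95% interval from -0.76 to 0.02 (edgeR adjusted p = 0.416). The log2 fold changes of Gbp4, Gbp5, Gbp6 and Gbp8 were -0.22, -0.32, -0.02 and -0.88, each with an interval that spanned 0. Over the 8 members the median was -0.27, beside 0.00 over all genes tested. Heart muscle markers lay above 0 in cre aortas for 8 of 8 genes tested and nerve and Schwann cell markers for 7 of 7, with 4 and 3 of them at an unadjusted edgeR p under 0.05, 0 past edgeR and 4 and 3 past DESeq2. An unadjusted edgeR p under 0.05 was found for 12.6% of all genes tested, and DESeq2 called 204 genes in all. Adipocyte markers lay above 0 for 6 of 6 (median 0.75), with 0 at an unadjusted p under 0.05, and fibroblast markers below 0 for 6 of 6 (median -0.45), with 4 at an unadjusted p under 0.05, and neither list had a gene past edgeR or DESeq2. The part of such tissue in the aortic values was not tested.

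Wild-type aorta replicate 1 stood apart for the family. It was the highest of the 10 aortas for 7 of the 8 members, all but Gbp9, and its 8 members summed to 451 CPM, against 221 to 245 CPM in the other wild-type aortas and 229 to 303 CPM in the cre aortas. On the log2 scale its members lay on average 0.93 above the mean of the 10 aortas, and its immunity-related GTPases 0.97 above. Iigp1, one of the latter, reached 145 CPM there. Its T and NK cell markers summed to 91.6 CPM, against 24.3 to 51.3 CPM in the other 9, whereas its macrophage markers lay 0.08 below the mean. Its Ifng level was the highest at 0.712 CPM, but that is near the floor, as 5 reads of Gbp2b in the same library made 1.19 CPM. Ifng was too low to test in aortas. Other lists also lay off their mean over the 10 aortas in this library. Adipocyte, heart muscle, and nerve and Schwann cell markers lay at -1.48, -1.10 and -0.98, and smooth muscle and fibroblast markers at 0.165 and 0.155. Type I interferon signalling and antigen presentation genes each lay at 0.43. The part of T or NK cells or of other tissue in its family levels was not tested. Without it the log2 fold changes were 0.32 for Gbp2, -0.01 for Gbp3, 0.26 for Gbp4, -0.10 for Gbp5, 0.30 for Gbp6, 0.01 for Gbp7 and -0.40 for Gbp8, and no member passed. Without cre replicate 4, which was high for Gbp3, Gbp3 was at -0.56.

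**Figure D5:**
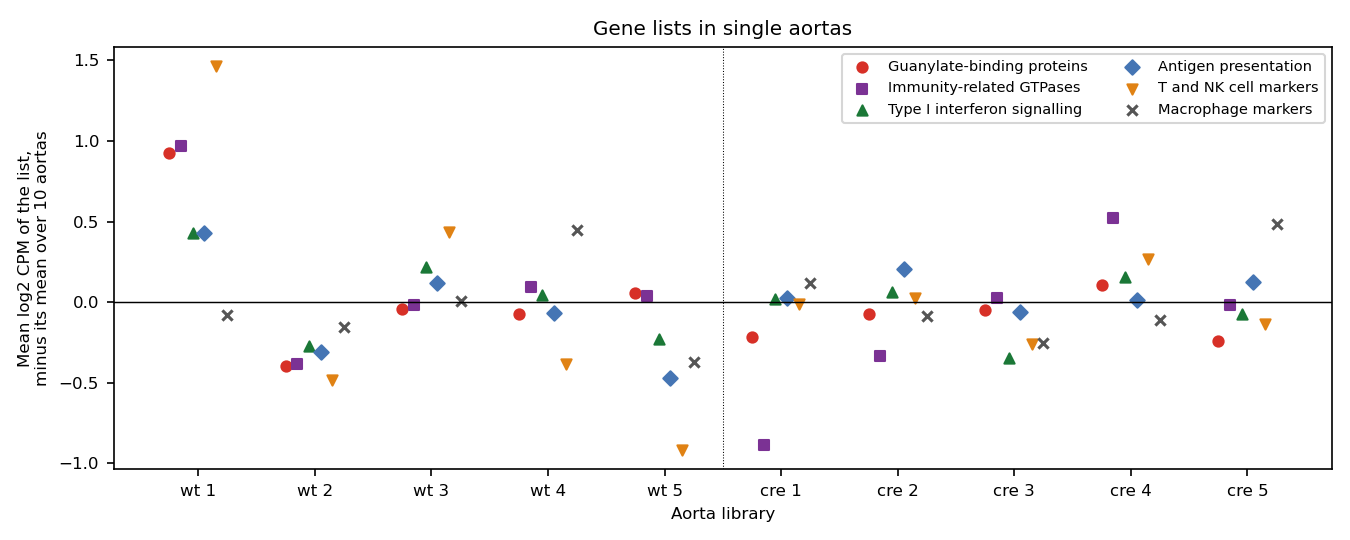
Mean log2 CPM of 6 gene lists in each of the 10 aortas (x axis), minus the list's mean over those aortas (y axis). Wild-type replicate 1 lies 0.93 above the mean for the guanylate-binding proteins, 0.97 for immunity-related GTPases and 1.46 for T and NK cell markers, and 0.08 below it for macrophage markers.

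In aortas, too, the lists around the family held no gene that passed edgeR, with 0 of 87 over 7 lists, 12 of them with an unadjusted p under 0.05 (12.6% of all genes tested had one), 2 past DESeq2 and 0 past limma-voom. The 2 past DESeq2 were Map1lc3a, an ATG8 protein of autophagy, which was higher in cre (log2 fold change 0.70 in edgeR, adjusted p = 0.156), and Nlrp1b, an inflammasome sensor, which was lower (-1.34, edgeR adjusted p = 0.223). The immunity-related GTPases had a median of -0.17 over 5 tested and the interferon gamma pathway a median of -0.09 over 14, in which Jak2 was at -0.44 (edgeR adjusted p = 0.320). Antigen presentation genes had a median of 0.10, led by Psmb10, an immunoproteasome subunit, at 0.56 (edgeR adjusted p = 0.273).

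Whether the genotype difference itself differed between tissues was tested as an interaction over all 16 libraries. All 8 members had a smaller log2 difference in aorta than in B1b cells, with a median of -0.56 beside 0.05 over all genes, and 0 of 8 passed edgeR, where 0.0199% of 15091 genes did. An unadjusted p under 0.05 was found for 3 of the 8, Gbp7, Gbp3 and Gbp2, where 11.1% of all genes had one. Gbp7 had a difference of -0.95 (95% interval -1.42 to -0.47; edgeR adjusted p = 0.161), and DESeq2 alone called it (-1.0, DESeq2 adjusted p = 0.00996). Gbp3 and Gbp2 had differences of -0.92 and -0.61 (edgeR adjusted p = 0.376 and 0.441). Without wild-type aorta replicate 1 these were -0.60 and -0.34, those of Gbp5 and Gbp8 went from -0.52 to -0.30 and from -1.41 to -0.94, and those of Gbp4 and Gbp6 turned to 0.27 and 0.26. The B1b differences are part of this contrast, so it is no independent view of them.

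Between wild-type tissues, 6 of the 8 members were higher in B1b cells than in aorta, where 35.4% of 14339 genes were higher in B1b cells. Gbp3 had the largest difference, 2.17 on the log2 scale (SE 0.27, edgeR adjusted p = 1.46e-05), followed by Gbp5 at 2.02, Gbp7 at 1.97, Gbp9 at 1.43, Gbp4 at 1.27 and Gbp2 at 1.16. The libraries of the 2 tissues did not overlap for these genes, as for 34.8% of all genes tested in that direction, except Gbp4, for which wild-type aorta replicate 1, at 43.0 CPM, lay above the lowest B1b library at 39.0 CPM. Gbp6 (-0.82, edgeR adjusted p = 0.117) and Gbp8 (-0.39, edgeR adjusted p = 0.549) did not pass. Gbp2b was at 27.4 ± 10.9 CPM in B1b cells (SD, n = 3) and at 0.325 ± 0.518 CPM in aorta (SD, n = 5).

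In wild-type aorta the order of mean levels differed from that in B1b cells only in that Gbp2 and Gbp3, and Gbp6 and Gbp4, changed places. The ranges of both pairs overlapped in aorta, and the difference in order was not tested. Per kb, Gbp2 led at 34.8 ± 13.8 CPM (SD, n = 5), ahead of Gbp3 at 18.3 ± 8.25 and Gbp7 at 10.8 ± 2.40. The ranges of these neighbours overlapped, but within every library Gbp2 stood above Gbp3 and Gbp3 above Gbp7. Gbp5, Gbp9, Gbp6, Gbp4 and Gbp8 followed with means from 6.19 to 2.28 CPM per kb, each overlapping the next.

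The pattern of the members across the 16 libraries, after the mean of each tissue was taken out, was compared by the root mean square difference of log2 CPM. Gbp2 and Gbp7 were each other's nearest member at 0.23, and Gbp3 was nearest to Gbp2 at 0.26. Gbp4 and Gbp5 paired at 0.26 across the 2 clusters, and Gbp9 was nearest to Gbp5 at 0.27. Gbp6 and Gbp8, with the fewest reads, lay farther from any member at 0.50 and 0.66. Of 8886 other genes, those nearest to the mean profile of the 8 members were Zbtb10 at 0.19, Alkbh1, Irgm2 and Bclaf3 at 0.21 each, and Hars2 at 0.22, where the median gene lay at 0.39. Irgm2 is itself an immunity-related GTPase that interferon gamma induces. The measure rewards small variation, and the libraries share depth and normalization, so the order is a description.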

How the data were processed

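RNA was sequenced from sorted peritoneal B1b cells and whole aortas. Per the labels' protocols, RNA was isolated with a Direct-zol kit after TRIzol lysis and libraries were made with a KAPA mRNA kit. The submitters' processing notes name the build mm10 and the tools STAR 2.5.2b and CASAVA 1.8.2. The sources used here do not say how reads were counted, on which annotation or whether by strand. The authors deposited raw counts for each RefSeq transcript, as whole numbers without normalization, in 1 column per sample.

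Of 35745 rows, 35440 took a gene name from RefSeq (GRCm38), 188 from GENCODE and 117 took none. The row of highest total count was kept for each gene. Each comparison was fitted with edgeR 4.0.16 in R 4.3.3 (TMM, filterByExpr, robust quasi-likelihood F test), with Benjamini-Hochberg adjustment over all genes tested and a threshold of 0.05. CPM used TMM-scaled sizes over all 16 libraries. The deposited counts gave a depth of 6815829 to 9911226 counts per B1b library and 1645926 to 7300894 per aorta after this step, so low genes such as Gbp8 are the least precise. DESeq2 1.42.0, limma 3.58.1 (voom), other scalings, filters and transcript choices, 1 fit over all libraries and leaving out libraries were alternatives. Scripts were tested on simulated counts.

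Members, gene lists and the naming rule were chosen with earlier results of these data known. All 8 members are named, and from each other list the genes past the threshold or up to 2 of smallest p, not all of which are printed for aortas. The 5 genes nearest in profile, the marker genes and the neighbours of the clusters are named besides, and Irf1 and Ifng were named after their values were seen. Not every listed gene or marker is reported here.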

Additional observations from a re-analysis of the deposited data

Results flagged for a closer look

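For each of the 8 members, the 5 aortas of each genotype were tested for a single library far from the others. Of these 16 tests, 4 stood out. Chance alone marks about 1 in 20 independent tests, but these tests share the same 10 aortas, so nothing is read from the count. Of the 4, 3 were in wild-type aorta replicate 1. Gbp2 was at 148 CPM there and at 62.3 to 85.0 CPM in the other 4 wild-type aortas. Gbp3 was at 88.3 CPM there and at 35.0 to 41.7 CPM in the others, and Gbp4 at 43.0 CPM against 12.8 to 15.8 CPM. In cre aorta replicate 4, Gbp3 was at 60.2 CPM, against 31.3 to 34.8 CPM in the other 4 cre aortas.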

How the results depend on the processing

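Of the members' log2 fold changes under all alternatives, 558 kept their direction and their side of the threshold, 28 turned sign, 4 lost a call and 2 gained one, and every member that passed kept its sign. In B1b cells 83 genes passed. DESeq2 called 197, no filter 327, counts summed over transcripts 11, and 1 fit over all 16 libraries 0 genes and 0 members. Leaving out 1 B1b library gave 35 to 103 genes and 3 members throughout. In aortas 2 genes passed, against 204 with DESeq2, 1 with limma-voom, 1 with the transcript of lowest count, 47 with all 16 libraries, 92 without the 2 aortas of lowest count, and 0 to 14 without 1 library. The interaction called 3 genes and 0 members, against 173 genes and 1 member (Gbp7) with DESeq2, 17 genes without those 2 aortas, and 1 to 7 genes and 0 members without 1 library. Between wild-type tissues, leaving out 1 library gave 10165 to 11075 genes and 6 to 7 members, the seventh being Gbp6 without wild-type aorta replicate 2 (-1.02, edgeR adjusted p = 0.0438). The cause of these shifts was not tested.

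The sign turned only for members that did not pass. Gbp4 in B1b cells was 0.0010 with DESeq2's size factors in edgeR, 0.0025 with DESeq2, 0.0117 without a filter and 0.0017 with summed transcripts. In aortas Gbp6 was 0.14 with limma-voom and Gbp2 -0.074 without the 2 aortas of lowest count. Without 1 library, Gbp4 and Gbp6 in B1b cells ran from -0.13 to 0.13 and from -0.33 to 0.38. In aortas Gbp2, Gbp4, Gbp6 and Gbp7 ran from -0.048 to 0.32, -0.36 to 0.26, -0.23 to 0.30 and -0.19 to 0.014. The interaction ran from -0.42 to 0.27 for Gbp4 and from -0.46 to 0.26 for Gbp6, and the wild-type tissue difference of Gbp8 from -0.71 to 0.07.

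No paired analysis was possible because the replicate numbers follow accession order and pair no samples.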
